A study of Mus musculus with 16 samples.

Results

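The transcripts described here are those of the globins and of a few further genes of red blood cells, measured in the hypothalamus of weanling mice. They were taken as a list of names: the alpha globins Hba-a1 and Hba-a2, the beta globins Hbb-b1, Hbb-b2 and Hbb-bt, the heme synthesis enzymes Alas2 and Fech, and the membrane protein gene Slc4a1. All probes annotated to these 8 symbols were taken, which gave 8 probes of the 25697 on the array, for 6 of the 8 genes. Fech had 3 probes and the other 5 genes had 1 each, and Hba-a2 and Hbb-b1 were not analysed here. All 8 probes were among the 14870 probes that were tested, a probe being tested when its signal stood above the negative controls of the array (detection p under 0.05) on at least 8 of the 16 arrays.

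The samples were whole hypothalami of 21-day-old female C57BL/6J mice of the first (F1) generation, 1 mouse per Illumina MouseRef-8 v2 array, with 8 mice from control litters (CON) and 8 from litters under lactation undernutrition (LUN). CON mothers ate freely, and LUN mothers were given 50% of the food that the control mothers ate from birth to weaning, with 8 pups per litter in both groups. The food given to the mothers was restricted, and what the pups themselves ate is not stated in the sources used here. According to the methods, F1 mice were drawn from 4 litters in CON and from 8 in LUN, which means that CON littermates are among the 8 control arrays. Which litter each mouse came from is not stated in the sources used here, every p-value treats the mice as independent, and p-values may therefore be too small. BeadChip 1 held CON 1 to CON 4 with LUN 1 to LUN 4, BeadChip 2 held the rest, and on each BeadChip the CON arrays took the positions before the LUN arrays, so position on the BeadChip and group cannot be told apart.

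Hemoglobin is a tetramer of alpha and beta globin chains, each of which holds a heme group that binds oxygen. Globin mRNA makes up most of the mRNA of reticulocytes, the young red cells that have lost their nucleus and still translate, and it therefore appears in RNA from any tissue whose vessels still hold blood. Adult alpha globin comes from near-identical copies, Hba-a1 and Hba-a2. Adult beta globin comes from a pair of genes that differ between mouse strains: C57BL/6J carries Hbb-bs and Hbb-bt, and Hbb-b1 and Hbb-b2 are the corresponding genes of other strains. Alas2 makes the erythroid form of the enzyme of the first step of heme synthesis, Fech makes ferrochelatase, which inserts iron in the last step in every cell type, and Slc4a1 encodes band 3, the anion exchanger of the red cell membrane. The methods describe removal of the brain after cervical dislocation and mention no perfusion. In such bulk tissue, fewer red cells and less globin mRNA per red cell cannot be told apart. Which cells the transcripts came from was not tested.

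Because several of these genes moved together, the windows upstream of their start sites are shown for Hba-a1, Hbb-bt and Alas2. RefSeq promoter windows (build GRCm38.p6) were found for 4 of the 8 symbols, the fourth being Hba-a2, and the 250 bases before the start are printed 5′ to 3′ on the strand of the gene. Capitals mark matches on either strand to the GATA motif of erythroid factors (AGATAA or TGATAA), to the CACCC box bound by Krüppel-like factors (CACCC), to the CCAAT box (CCAAT) and to the TATA box (TATAA).
Hba-a1: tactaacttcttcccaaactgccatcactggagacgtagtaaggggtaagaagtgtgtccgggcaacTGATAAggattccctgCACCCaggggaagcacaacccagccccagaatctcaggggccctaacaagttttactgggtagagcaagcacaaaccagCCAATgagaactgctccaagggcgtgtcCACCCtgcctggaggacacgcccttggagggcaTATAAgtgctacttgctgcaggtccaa
Hbb-bt: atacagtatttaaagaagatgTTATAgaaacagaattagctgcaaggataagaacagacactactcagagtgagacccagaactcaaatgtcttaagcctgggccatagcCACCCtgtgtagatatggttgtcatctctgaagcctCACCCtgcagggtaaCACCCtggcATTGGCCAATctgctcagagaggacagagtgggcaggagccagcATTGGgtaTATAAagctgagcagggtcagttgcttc
Alas2: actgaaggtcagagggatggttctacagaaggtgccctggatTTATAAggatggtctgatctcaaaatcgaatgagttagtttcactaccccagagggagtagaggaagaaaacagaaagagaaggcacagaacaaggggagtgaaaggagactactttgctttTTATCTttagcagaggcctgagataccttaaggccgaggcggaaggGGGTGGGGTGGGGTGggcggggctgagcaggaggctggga
The Hba-a1 window lies at chr11:32283422-32283671 on the plus strand, that of Hbb-bt at chr7:103813924-103814173 on the minus strand, and that of Alas2 at chrX:150547167-150547416 on the plus strand. The Hba-a1 window held 1 GATA motif, which ended 178 bases before the start, 2 CACCC boxes, 1 CCAAT box and a TATA box 27 bases before the start. The window of Hba-a2, when shifted by 3 bases, was identical to it over all 247 bases compared. In the Hbb-bt window there were 3 CACCC boxes, 3 CCAAT boxes and a TATA box 28 bases before the start, and no GATA motif with these letters. A further TATAA match lay on the opposite strand, 229 to 225 bases before the start. The first pair of CCAAT boxes, on opposite strands, adjoin in the printed run. The Alas2 window held a GATA motif on the opposite strand, which began 86 bases before the start, and 3 CACCC boxes on that strand within 40 bases of the start. Its TATAA matches on the 2 strands overlap and lie over 200 bases upstream. Of the 32851 windows of this length in the table, 16.6% held the GATA motif, 52.0% the CACCC box, 33.8% the CCAAT box and 22.8% the TATA box. These matches describe the letters of the windows only.

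The mean signal of an array was 394 to 516 in CON and 351 to 414 in LUN, lower in LUN by 74.4 (two-sided exact permutation test, p = 0.000466), and 14540 to 15384 probes were detected. Background-corrected values were therefore set to a common distribution by quantile normalization and taken to log2; the median change over the 10245 tested genes was then -0.01. In the lists of markers, 8 of 9 genes of the hypothalamus with a probe were tested. Among them Cartpt and Oxt were detected on 8 of 8 arrays in each group, and Pomc on 8 of 8 CON and 0 of 8 LUN arrays. The number of arrays limits the precision of all values.

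Of the 8 probes, 5 were lower in LUN at an adjusted p under 0.05 (limma, Benjamini-Hochberg over all tested probes) and the 3 probes of Fech did not pass. All 5 also differed by at least 1.5-fold, but Hbb-b2 lost this without background correction or with a larger background offset, where it gave -0.39 and, at an offset of 50, -0.42. Over all tested probes, 15% passed the adjusted p, 8.08% lower and 6.92% higher in LUN, and 1.34% passed with 1.5-fold, 0.525% lower in LUN. Among the genes ordered by the size of the fall in LUN, each by its brightest tested probe, Slc4a1 was number 1, Hba-a1 number 2 and Alas2 number 3 of 10245, with Hbb-b2 at 21, Hbb-bt at 25 and Fech at 6015. The members were chosen with earlier results of these data known, so these places are a description and no independent evidence. The place of Slc4a1, a dim probe, depended on the background correction, without which it changed by -0.83, against -1.15 for Hba-a1 and -0.97 for Alas2.

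The alpha globin Hba-a1 (ILMN_1212702) gave the brightest signals of the set. The deposited signal, in scanner units, was 8412 at the lowest, 16107 at the median and 24071 at the highest CON array, and 3416, 5369 and 9065 at the corresponding LUN arrays. The brightest LUN array, LUN 4, lay just above the dimmest CON array, CON 4, so the groups overlapped only at their edges. On the normalized log2 scale the value was 13.74 ± 0.49 in CON (SD, n = 8) and 12.59 ± 0.41 in LUN (SD, n = 8). Hba-a1 fell by 1.15 in LUN (limma, standard error 0.20, adjusted p = 0.0016), so that CON was 2.22-fold higher (95% interval 1.65 to 2.99). After normalization 6 of the 8 CON arrays lay above every LUN array and 7 of the 8 LUN arrays lay below every CON array. Because Hba-a1 and Hba-a2 are near-identical copies, the probe may report both, which was not tested.

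Hbb-bt (ILMN_1235372), a beta globin that this strain carries, fell less. No probe was annotated to Hbb-bs, and whether the Hbb-bt probe also reports Hbb-bs was not tested. Its signal was 1402, 1901 and 2617 at the lowest, median and highest CON array, against 709, 860 and 1548 in LUN. The CON arrays held the higher values, and LUN 4 and LUN 2 reached into their range. The normalized log2 value was 10.74 ± 0.31 in CON (SD, n = 8) and 10.03 ± 0.39 in LUN (SD, n = 8), a change of -0.71 (limma, standard error 0.16, adjusted p = 0.00627), with CON 1.64-fold higher (95% interval 1.30 to 2.07).

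The probe annotated to Hbb-b2 (ILMN_2729513), a beta globin that the C57BL/6J genome does not carry under that name, was dim. It gave signals of 87.7, 114 and 161 at the lowest, median and highest CON array and of 57.8, 77.3 and 105 in LUN. It was detected on 8 of 8 CON arrays and on 6 of 8 LUN arrays, LUN 7 and LUN 8 being at the level of the negative controls. The log2 value was 5.97 ± 0.37 in CON (SD, n = 8) and 5.24 ± 0.49 in LUN (SD, n = 8), a change of -0.73 (limma, standard error 0.19, adjusted p = 0.0177). Which transcript this probe binds in C57BL/6J RNA was not tested.

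Alas2 (ILMN_2675874), the entry enzyme of heme synthesis in red cells, also fell. Its signal was 275, 504 and 689 at the lowest, median and highest CON array and 151, 177 and 278 in LUN. Here too the brightest LUN array, LUN 4, stood at the level of the dimmest CON arrays, CON 1 and CON 4. The log2 value was 8.53 ± 0.58 in CON (SD, n = 8) and 7.39 ± 0.41 in LUN (SD, n = 8), a change of -1.14 (limma, standard error 0.22, adjusted p = 0.00307), with CON 2.20-fold higher (95% interval 1.59 to 3.05).

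Slc4a1 (ILMN_1227675), the band 3 gene, gave signals of 108, 188 and 365 at the lowest, median and highest CON array and of 66.8, 89.8 and 125 in LUN. All CON arrays and 7 of 8 LUN arrays were detected, LUN 3 being the exception. The highest CON array was CON 3, and the signals overlapped because CON 2, the lowest of its group, lay below LUN 4 and LUN 2. After normalization the overlap was wider, and 5 of the 8 CON arrays lay above every LUN array. The log2 value was 7.02 ± 0.66 in CON (SD, n = 8) and 5.77 ± 0.51 in LUN (SD, n = 8). Slc4a1 fell by 1.25 (limma, standard error 0.26, adjusted p = 0.00453), with CON 2.38-fold higher (95% interval 1.62 to 3.50).

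Fech, the iron-inserting enzyme that all cells use, stood apart from these genes. Its brightest probe (ILMN_1228534) gave signals of 77.8, 102 and 116 at the lowest, median and highest CON array and of 80.6, 89.4 and 101 in LUN. The LUN arrays thus lay inside the range of the CON arrays. The log2 value was 5.64 ± 0.26 in CON (SD, n = 8) and 5.66 ± 0.17 in LUN (SD, n = 8), a difference of 0.02 with a 95% interval of -0.19 to 0.23 (adjusted p = 0.931 from limma). The other probes of Fech, which were as dim, gave -0.16 (ILMN_1229519, adjusted p = 0.476 from limma) and 0.10 (ILMN_2710731, adjusted p = 0.581 from limma, detected on 5 of 8 CON and 8 of 8 LUN arrays).

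**Figure D1:**
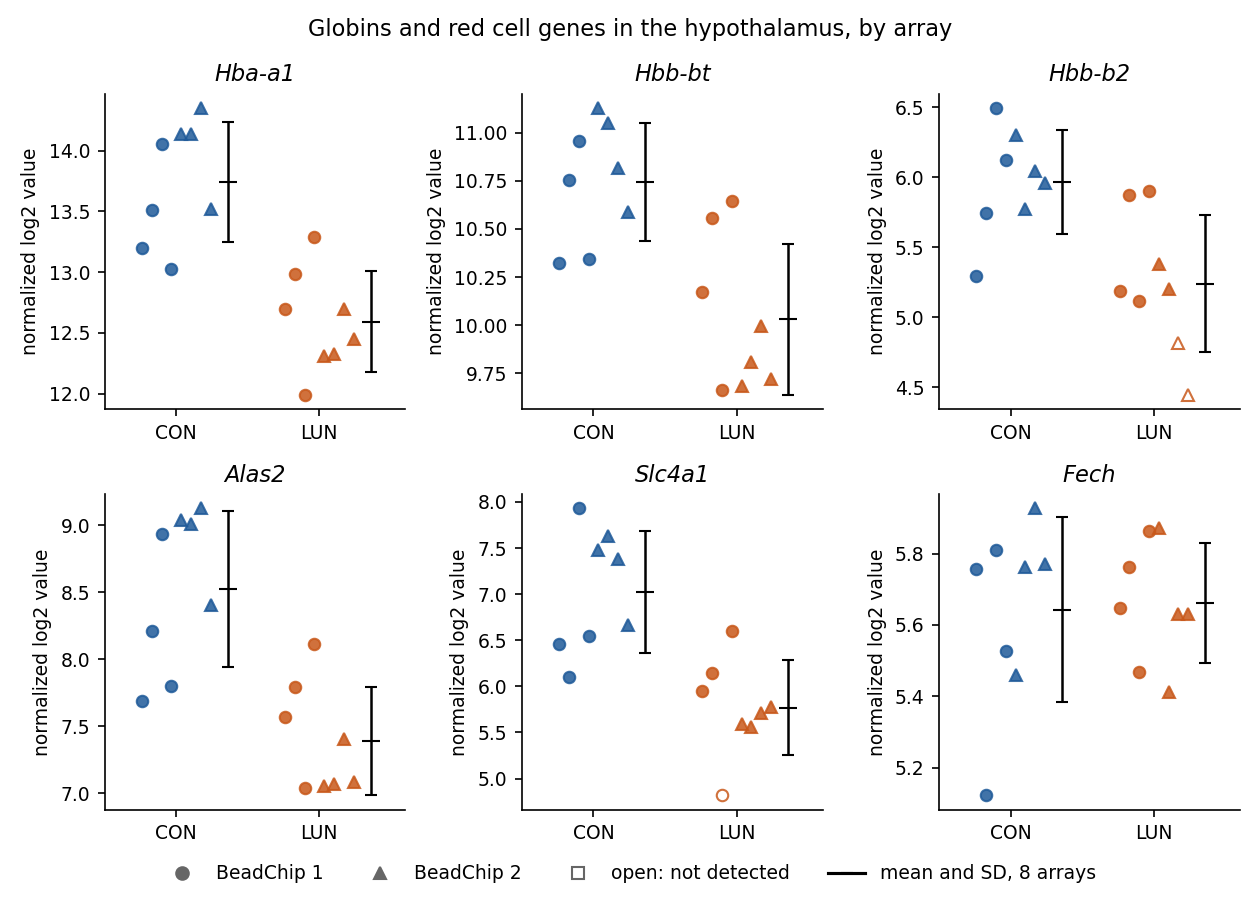
Normalized log2 value (y axis, scaled to each gene) of Hba-a1, Hbb-bt, Hbb-b2, Alas2, Slc4a1 and the brightest Fech probe on the 8 CON and 8 LUN arrays, circles for BeadChip 1, triangles for BeadChip 2, open symbols for arrays on which the probe was not detected, and black bars for the mean and SD. The LUN mean is lower for every gene but Fech, by 1.15 for Hba-a1 and 1.25 for Slc4a1, and for these 5 genes the triangles of the groups are farther apart than the circles.

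The next question was whether globins, heme synthesis and membrane genes changed by the same amount. The change in LUN was compared for all 15 pairs of the 6 genes, as the difference of their log2 values on each array (two-sided exact permutation test over all splits of the arrays, Benjamini-Hochberg over the 15 pairs, smallest possible p 0.000155). In 8 of the 15 pairs the changes differed at an adjusted p under 0.05. How often other pairs of tested genes differ in this way was not computed, so the count has no background share. The 5 pairs with Fech were all among them: Fech changed less than Hba-a1 by 1.17 (95% interval 0.73 to 1.61, adjusted p = 0.00233 from the exact permutation test), and less than the other 4 genes by 0.73 to 1.27 (adjusted p of 0.00233 to 0.011 from the exact permutation tests). Because Fech itself changed by only 0.02, these 5 differences largely repeat the falls of the single genes given above. For Hba-a1 minus Fech the 8 LUN arrays lay below all 8 CON arrays, a separation that 1.27% of single tested probes showed in this direction.

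The remaining differences all involved Hbb-bt. Hba-a1 fell more than Hbb-bt by 0.44 (95% interval 0.21 to 0.66, adjusted p = 0.00233 from the exact permutation test), and Alas2 by 0.42 (95% interval 0.17 to 0.68, adjusted p = 0.00738 from the exact permutation test). Slc4a1 fell more than Hbb-bt by 0.54 (95% interval 0.12 to 0.96, adjusted p = 0.0288 from the exact permutation test). The difference between the Hba-a1 and Hbb-bt probes was -0.37 on BeadChip 1 and -0.50 on BeadChip 2. Hba-a1 and Alas2 were not told apart, with a difference of -0.01 and a 95% interval of -0.16 to 0.13 (adjusted p = 0.899 from the exact permutation test). The interval for Hba-a1 minus Slc4a1 was wider, -0.21 to 0.42 around 0.10, and that for Alas2 minus Slc4a1 was -0.22 to 0.46 around 0.12. The 2 beta globin probes differed by -0.01 (95% interval -0.37 to 0.35), and Hbb-b2 did not pass against Hba-a1, Alas2 or Slc4a1 (adjusted p of 0.0963 to 0.107 from the exact permutation tests). These differences compare changes and not levels, since signals of different probes are not on 1 scale, and a dim probe understates its change when background is left in: without background correction Hba-a1 fell more than Slc4a1 by 0.31 (adjusted p = 0.0244 from the exact permutation test), and the difference between Hbb-bt and Slc4a1 was 0.14 (adjusted p = 0.317 from the exact permutation test). The latter pair also missed the threshold under median scaling and without normalization between arrays (0.46 in both, adjusted p = 0.057 from the exact permutation test), and without any 1 of CON 3, CON 6, CON 7, LUN 2 and LUN 3, with differences of 0.44 to 0.52 (adjusted p of 0.0524 to 0.0597 from the exact permutation tests).

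**Figure D2:**
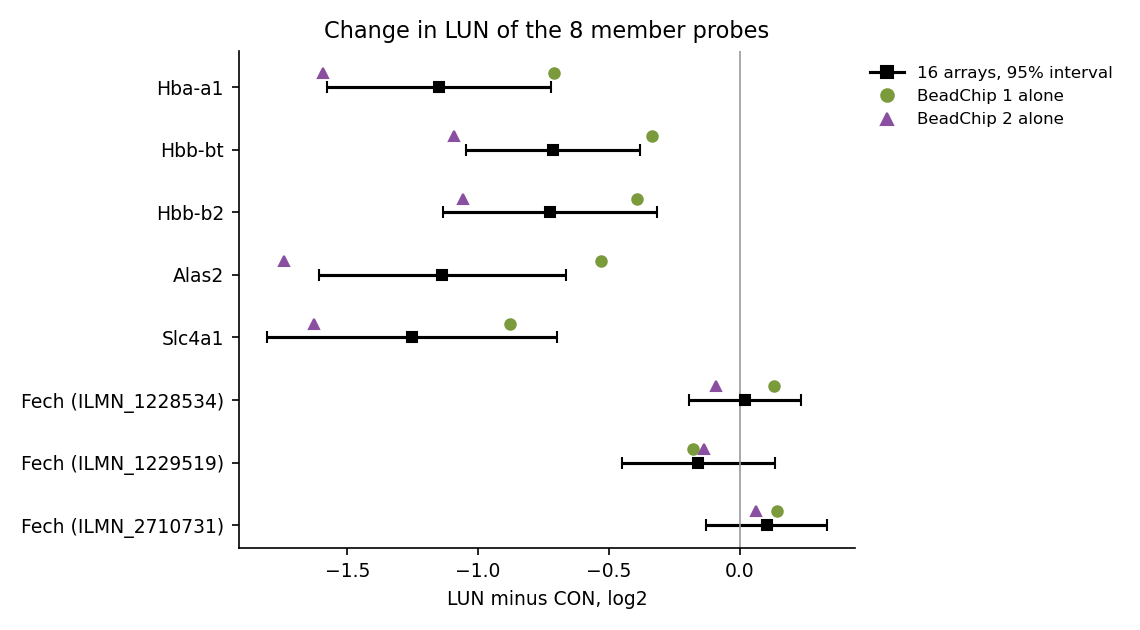
Change in LUN against CON on the log2 scale (x axis) for the 8 probes, with squares and bars for the estimate and 95% interval over 16 arrays, circles for BeadChip 1 alone and triangles for BeadChip 2 alone. The 5 probes of Hba-a1, Hbb-bt, Hbb-b2, Alas2 and Slc4a1 lie between -1.25 and -0.71 and the 3 probes of Fech between -0.16 and 0.10, and the 5 falls are larger on BeadChip 2.

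The falls were larger on BeadChip 2 than on BeadChip 1. Alas2 changed by -0.53 on BeadChip 1 and by -1.74 on BeadChip 2, Hba-a1 by -0.71 and -1.59, and Hbb-bt by -0.33 and -1.09. Slc4a1 changed by -0.88 and -1.63 and Hbb-b2 by -0.39 and -1.06. On BeadChip 2, with 4 arrays a group, the CON and LUN arrays of these 5 genes did not overlap, as for 7.11% of all tested probes in this direction, and all 5 passed on that BeadChip alone (adjusted p of 0.00591 to 0.0367 from limma, against 0.82% of all tested probes lower in LUN). On BeadChip 1 the groups of all 5 overlapped, against 5.33% of tested probes that did not overlap and were lower in LUN, and none passed on that BeadChip alone (adjusted p of 0.255 to 0.503 from limma), where 0.0403% of tested probes passed and were lower in LUN.

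Both groups contributed to this difference. For Hba-a1, the CON mean was 13.45 on BeadChip 1 and 14.04 on BeadChip 2, while the LUN mean was 12.74 and 12.45. For Alas2, the CON mean was 8.16 and 8.90 and the LUN mean 7.63 and 7.15. The difference in change between BeadChips was -1.21 for Alas2 (unadjusted p = 0.00403 from limma), -0.76 for Hbb-bt (unadjusted p = 0.0141 from limma) and -0.88 for Hba-a1 (unadjusted p = 0.0277 from limma), and each had an adjusted p of 0.999. No tested probe passed this test after adjustment, and 2.84% had an unadjusted p under 0.05. The BeadChips are known only as chips, and whether their mice differed in anything else is not stated in the sources used here.

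Within each group the arrays were ordered alike by most of these genes. In CON, the 4 arrays CON 3, CON 5, CON 6 and CON 7 were the highest for Hba-a1, Hbb-bt, Alas2 and Slc4a1, and for Hba-a1 they stood at 14.06 to 14.35 against 13.02 to 13.52 for the others. In LUN, LUN 4 and LUN 2 were the highest in that order and LUN 3 the lowest for the same 4 genes, and LUN 1 came next to LUN 2, level with LUN 7 for Hba-a1. Quantile normalization gives probes of equal rank an equal value, so that CON 5 and CON 6 share 14.14 for Hba-a1 although their signals were 21615 and 21490.

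Hba-a1 and Alas2 followed each other closely in both groups. Their correlation was r = 0.98 over the 8 CON arrays (exact permutation test, p = 0.000397, adjusted 0.00238 over the 30 correlations computed), with rho = 0.97 (exact permutation test, p = 0.000496, adjusted 0.00372), and r stayed at 0.98 without CON 1 and CON 4, the arrays farthest from the median. Over the 8 LUN arrays r was 0.95 (exact permutation test, p = 4.96e-05, adjusted 0.00149) and rho 0.99 (exact permutation test, p = 9.92e-05, adjusted 0.00298), with r = 0.97 without LUN 3 and LUN 4. The slope of Alas2 on Hba-a1 was 1.16 in CON and 0.94 in LUN, in log2 per log2. Within BeadChips of 4 arrays a group, r was 0.97 and 0.99 in CON and 0.997 and 0.96 in LUN.

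Hbb-bt and Slc4a1 were then set against the other genes. For Hba-a1 and Hbb-bt, r was 0.89 in CON (exact permutation test, adjusted p = 0.016) with rho = 0.80 (adjusted p = 0.0718), and 0.94 in LUN (exact permutation test, adjusted p = 0.00238) with rho = 0.97 (adjusted p = 0.00372). Without CON 1 the r in CON was 0.86 (exact permutation test, adjusted p = 0.0503) and without CON 4 it was 0.84 (exact permutation test, adjusted p = 0.0524). For Hba-a1 and Slc4a1, r was 0.82 in CON (exact permutation test, adjusted p = 0.0653) with rho = 0.68 (adjusted p = 0.179), and 0.95 in LUN (exact permutation test, adjusted p = 0.00238) with rho = 0.93 (adjusted p = 0.00843). In LUN, Slc4a1 had r = 0.84 with Hbb-bt and 0.85 with Alas2 (exact permutation tests, adjusted p of 0.00347 and 0.00946), and without LUN 4 both were 0.73 (exact permutation tests, adjusted p of 0.181 and 0.138). For Hbb-bt and Alas2, r in LUN was 0.98 (exact permutation test, adjusted p = 0.00238). Whether these correlations differ between the groups was not tested. Among the 10 pairs of Hba-a1, Hbb-bt, Hbb-b2, Alas2 and Slc4a1, 3 passed by r in CON and 6 in LUN at an adjusted p under 0.05, and by rho 1 and 6. The dim Hbb-b2 probe was in none of the pairs that passed, with r of 0.45 to 0.62 in CON and 0.51 to 0.74 in LUN.

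Fech did not follow the other genes by this test: its r was -0.00433 to 0.56 in CON and 0.52 to 0.67 in LUN, and none of its 10 pairs passed (adjusted p of 0.132 to 0.993 from exact permutation tests). Without the 2 arrays farthest from the median, r in LUN was 0.02 to 0.47. Without LUN 5, r was 0.93 with Hba-a1 (exact permutation test, adjusted p = 0.0155) and 0.91 with Alas2 (exact permutation test, adjusted p = 0.00595), and 16 of the 30 correlations passed in place of 9. With the BeadChip means removed from each group, r for the 10 pairs without Fech was 0.47 to 0.97 in CON and 0.47 to 0.99 in LUN, and for Hba-a1 and Alas2 in LUN it rose from 0.95 to 0.99. Pairings confined to arrays of 1 BeadChip cannot give a p below 0.00174, so a single pair could not pass over 30 correlations. None passed (smallest adjusted p = 0.0521 from the exact permutation test), which says little about whether the correlations hold within BeadChips.

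**Figure D3:**
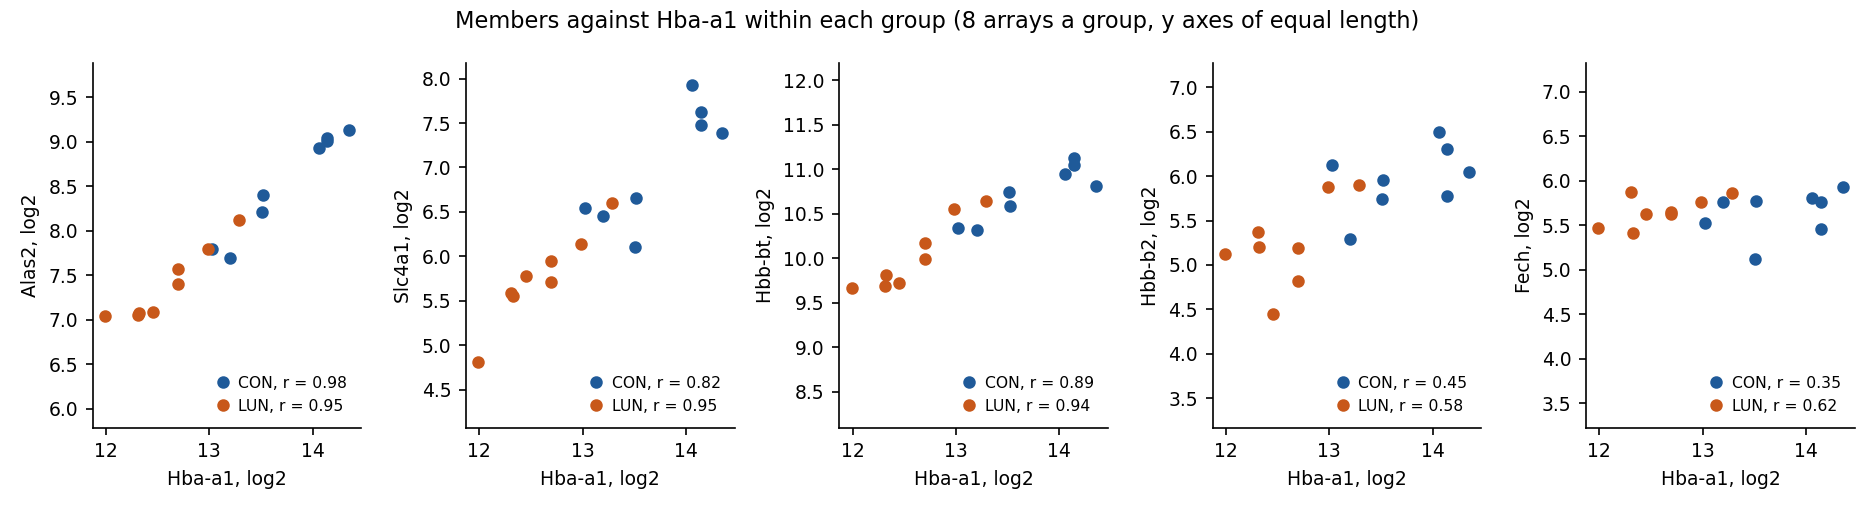
Normalized log2 values of Alas2, Slc4a1, Hbb-bt, Hbb-b2 and Fech (y axes, all of equal length) against Hba-a1 (x axis), 1 point per array, blue for CON and orange for LUN, with r over the 8 arrays of each group. Alas2 follows Hba-a1 in both groups (r = 0.98 and 0.95), Hbb-b2 scatters more, and Fech stays at 5.12 to 5.93 over the whole range of Hba-a1.

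The mean of the member genes on an array had no correlation with general properties of the array that passed the test. With the mean signal of the array r was 0.54 in CON and 0.38 in LUN, and with the number of detected probes -0.69 and 0.40 (exact permutation tests, adjusted p of 0.567 to 0.596 over 10 correlations).

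The other genes of the globin family gave smaller changes or were not tested. Of 11 further globins, 8 had a probe and 2 were tested. Neuroglobin (Ngb), a globin of neurons, fell by 0.32 (adjusted p = 0.042 from limma), and a dimmer probe of it gave -0.31 (adjusted p = 0.124 from limma). Cytoglobin (Cygb), found in fibroblast-like cells and some neurons, gave -0.19 (adjusted p = 0.151 from limma). The embryonic globins Hba-x, Hbb-bh1 and Hbb-y were detected on 0 of 16 arrays.

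The enzymes of heme synthesis that all cells use had changes of -0.18 to 0.13. Of 12 genes of the pathway and its transporters outside the members, 10 were tested, 1 passed and 9 did not, with a median change of -0.06. Of all tested genes 15.8% passed, 8.59% lower and 7.17% higher in LUN, the shares against which the counts of this and the following lists are to be read. Uros, which closes the porphyrin ring, fell by 0.18 (adjusted p = 0.024 from limma), and a dimmer probe of it gave -0.14 (adjusted p = 0.273 from limma). Alas1, the form of the first enzyme found in all cells, gave 0.13 (adjusted p = 0.0596 from limma), opposite in sign to Alas2. Alad gave -0.12 (adjusted p = 0.122), Urod -0.07 (adjusted p = 0.367), Cpox -0.13 (adjusted p = 0.434) and Ppox -0.06 (adjusted p = 0.561).

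Genes of the red cell membrane and skeleton other than Slc4a1 did not pass by their brightest probes. Of 17 such genes 13 had a probe, 7 were tested, and their median change was -0.09. Rhag, the ammonium channel subunit of the Rhesus complex, gave -0.27 (adjusted p = 0.108 from limma), Tmod1, which caps actin, -0.16 (adjusted p = 0.216) and Xk -0.09 (adjusted p = 0.48). Sptb, the beta spectrin of red cells that neurons also use, gave 0.15 (adjusted p = 0.0704 from limma), and the water channel Aqp1 0.33 (adjusted p = 0.48). Dmtn, an actin-bundling protein, gave -0.10 (adjusted p = 0.241 from limma), while a dimmer probe of it gave -0.21 (adjusted p = 0.0367 from limma).

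The list of regulators of red cell formation and the globin chaperone held 11 genes, of which 4 were tested. None of the 4 passed, against 15.8% of all tested genes. In the annotation used here no probe had the symbol of the globin chaperone Ahsp, which the paper lists, from the same arrays, as higher in CON than in LUN. The paper also lists alpha globin, Hbb-b1 and Slc4a1 as higher in CON. The cofactors Zfpm1 and Lmo2 gave 0.18 (adjusted p = 0.0914 from limma) and 0.08 (adjusted p = 0.441), the erythropoietin receptor Epor -0.07 (adjusted p = 0.601) and the transferrin receptor Tfrc 0.05 (adjusted p = 0.649). Among 17 genes of late red cells 9 were tested, with a median change of -0.04, and 1 passed, against 15.8% of all tested genes: the peroxidase Prdx2, which other cells also express, fell by 0.16 (adjusted p = 0.0393 from limma), and its 2 dimmer probes gave -0.07 and -0.01 (adjusted p of 0.356 and 0.94 from limma). Catalase (Cat) gave -0.15 (adjusted p = 0.106), Mkrn1 0.13 (adjusted p = 0.0779) and Bpgm, which makes the bisphosphoglycerate that lowers the oxygen affinity of hemoglobin, -0.07 (adjusted p = 0.663). Bnip3l, which serves the clearance of mitochondria from reticulocytes, gave -0.06 (adjusted p = 0.475), and Ubac1 0.05 (adjusted p = 0.408) with 0.31 by a dimmer probe (adjusted p = 0.0431 from limma).

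None of the 6 tested genes for heme degradation and hemoglobin scavenging passed, against 15.8% of all tested genes, and their median change was -0.08. Hmox1, the inducible heme oxygenase, gave -0.29 (adjusted p = 0.0675 from limma) and Cd163, the hemoglobin scavenger receptor of macrophages, -0.23 (adjusted p = 0.0994 from limma). Blvra gave -0.07 (adjusted p = 0.299), Hmox2 -0.08 (adjusted p = 0.357), Hp -0.04 (adjusted p = 0.805) and Lrp1 0.03 (adjusted p = 0.848).

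A further 14 genes of these lists were detected on 1 to 7 arrays and were not tested. Each is given by 1 probe only, although Trim10 had 3 probes and Ermap, Gata1, Mb and Hpx had 2 each. In 10 of them more CON than LUN arrays were detected and in 2 more LUN arrays, with 31 detections in CON and 13 in LUN. Over all 2883 probes detected on 1 to 7 arrays, 43.5% were detected on more CON arrays and 40.3% on more LUN arrays. Trim10, a gene of late erythroid cells, was detected on 5 CON and 0 LUN arrays, with signals of 64.1 to 107 and 54.9 to 68.1, and Ube2l6 on 6 CON and 1 LUN arrays, with 62.8 to 90.2 and 55.9 to 68.9. Hbq1a, a theta globin, was detected on 4 CON and 1 LUN arrays, Ermap on 5 and 2, Isg20 on 2 and 0, and Hbq1b on 2 and 2. The erythroid transcription factor genes Gata1, Nfe2, Tal1 and Gfi1b were each detected on 1 CON array and 0 LUN arrays, while Klf1 went the other way, with 1 CON and 5 LUN arrays. Cldn13 was detected on 1 CON and 1 LUN array, Mb on 0 and 1, and Hpx on 1 and 0.

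**Figure D4:**
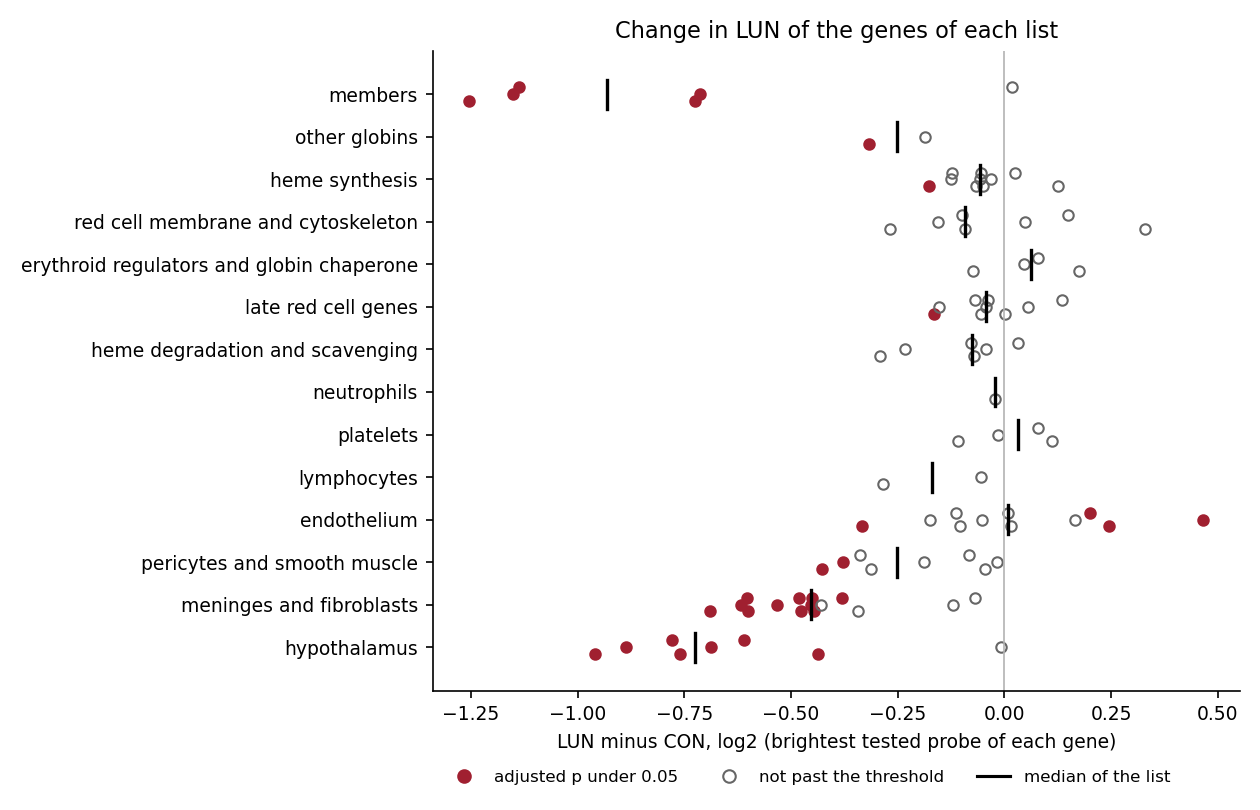
Change in LUN against CON on the log2 scale (x axis) of the brightest tested probe of each gene, 1 row per gene list, filled red for an adjusted p under 0.05, open for the others, with a black bar at the median of the list. The members have a median of -0.93, and the lists of meninges and of the hypothalamus are lower in LUN with -0.45 and -0.72. The list of other globins, tested only by Ngb and Cygb, has a median of -0.25. The lists from heme synthesis to heme degradation have medians between -0.09 and 0.06.

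Few markers of other blood cells were tested, and none passed by its brightest probe. The summed level given here is the sum of normalized values, on the linear scale, over the tested genes of a list on 1 array. Of 11 neutrophil genes with a probe only Mmp9 was tested, with -0.02 (adjusted p = 0.907 from limma), and the summed level of the list was 41.5 to 58.2 in CON and 40.2 to 64.3 in LUN. Their defining markers S100a8, S100a9 and Ngp were not among the tested genes, and 3 neutrophil and 6 lymphocyte genes were detected on no array. None of 4 tested platelet genes passed, with Gp1bb at 0.11 (adjusted p = 0.515), Itga2b at -0.11 (adjusted p = 0.604) and Gp9 at 0.08 (adjusted p = 0.622), and their summed level was 212 to 288 in CON and 234 to 285 in LUN. Of the lymphocyte genes, Cd74 gave -0.28 (adjusted p = 0.064 from limma) and Cd3e -0.06 (adjusted p = 0.706), with summed levels of 90.1 to 138 in CON and 93.6 to 119 in LUN. These sums can be compared between groups and not between lists.

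Genes of the vessel wall and of the meninges were looked at in the same way. Of 11 tested endothelial genes 3 rose, 1 fell and 7 did not pass, with a median of 0.01 and summed levels of 4527 to 5399 in CON and 4193 to 4650 in LUN. The organic anion transporter Slco1a4 rose by 0.47 (adjusted p = 0.00924 from limma) and the receptor Tek by 0.20 (adjusted p = 0.0318 from limma), and the glucose transporter Slc2a1 fell by 0.33 (adjusted p = 0.00703 from limma). Of 8 tested genes of pericytes and smooth muscle 2 fell, Vtn by 0.38 (adjusted p = 0.000839 from limma) and Kcnj8 by 0.43 (adjusted p = 0.0111 from limma), with a median of -0.25 and summed levels of 1909 to 3887 in CON and 1654 to 2383 in LUN. Abcc9 gave -0.19 (adjusted p = 0.153). Of 15 tested genes of meninges and fibroblasts 11 fell and 4 did not pass, with a median of -0.45 and summed levels of 5179 to 9231 in CON and 4487 to 5495 in LUN: Igf2 fell by 0.45 (adjusted p = 0.00134 from limma), Lum by 0.53 (adjusted p = 0.00202) and Fbln1 by 0.45 (adjusted p = 0.00219). Over all tested genes 7.17% rose and 8.59% fell.

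Within the groups, no correlation of these lists with the members passed, and with 8 arrays a group the test cannot show that they are unrelated. The mean log2 value of the meningeal list had r = 0.06 with the mean of the member genes over the 8 CON arrays and 0.41 over the 8 LUN arrays, the endothelial list -0.10 and -0.06, and the list of pericytes and smooth muscle -0.51 and 0.13 (exact permutation tests, adjusted p of 0.596 to 0.898). The part of these cell types in the falls of the globins was not tested. The hypothalamic list itself was lower, with 7 of 8 tested genes past the threshold, among them Cartpt with -0.78 (adjusted p = 6e-06 from limma), Pomc (adjusted p = 0.000326 from limma), detected on 8 of 8 CON and 0 of 8 LUN arrays, and Oxt with -0.89 (adjusted p = 0.00137 from limma), precursors of peptides that control feeding and other functions.

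Outside the lists, the genes most like the members were found by the correlation with the mean of the 6 member genes over the 16 arrays, after the group means were removed. As a description over 10239 genes that share arrays and normalization, the median r was 0.01, 3 genes exceeded 0.8 and none exceeded 0.9. Hba-a1 itself had r = 0.90 with the mean of the other members, Alas2 0.91, Slc4a1 0.89, Hbb-bt 0.84, Hbb-b2 0.59 and Fech 0.43. The most like were Rsad2, an interferon-induced antiviral gene, with r = 0.89, Zfp428 with 0.88 and Nhej1 with 0.85. Then came the mitotic genes Nusap1 with 0.80 and Cdca3 with 0.78, Oaz1, an inhibitor of polyamine synthesis, with 0.78, Prr15 with 0.76, and Dguok, Cox15 and Blvrb with 0.75 each. Blvrb, a biliverdin reductase abundant in red cells, was thus among the 10 although its change in LUN was only -0.04 (adjusted p = 0.726 from limma).

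Some of these genes differed between the groups in the same direction as the globins. Rsad2 fell by 0.70 (adjusted p = 0.0179 from limma), from 6.63 to 5.94, Nusap1 by 0.49 (adjusted p = 0.0171 from limma), Cox15, which serves the synthesis of heme A, by 0.30 (adjusted p = 0.00472 from limma) and Oaz1 by 0.18 (adjusted p = 0.0235 from limma). The other 6 did not pass, with changes of -0.24 to 0.13. The genes least like the members were Rab39b with r = -0.81, Tstd2 with -0.79, Arnt with -0.78, Hsd3b2 with -0.76 and Edrf1 with -0.75, of which Hsd3b2 rose in LUN by 0.77 (adjusted p = 0.000105 from limma) and the other 4 did not pass.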

How the data were processed

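RNA of 1 hypothalamus per array was hybridized to 16 Illumina BeadChip arrays. The deposited signals are mean bead intensities per probe as exported from GenomeStudio, without background subtraction, each with a detection p-value that the authors deposited beside it. The deposited log2 values, which the authors quantile-normalized in GeneSpring GX and which are centred on the median of each probe, served as an alternative. Over 3445 bright probes the difference between CON 1 and LUN 1 correlated at 0.99997 with the values used here, so the direction was the same. Column medians were -0.00193 to 0.00428. A correlation does not depend on scale, and dim probes differed in size: Hbb-b2 changed by -1.53 with the deposited values and by -0.73 with those used here.

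From the signals, background was corrected with limma 3.58.1 (nec, from detection p-values, offset 16), followed by quantile normalization and log2 in R 4.3.3. LUN and CON were compared with lmFit and eBayes over 14870 probes (detection p under 0.05 on at least 8 arrays), with Benjamini-Hochberg adjustment. Probe symbols came from GEO's platform annotation, updated by Entrez ID: 23978 of 25697 probes had 1, and 16 IDs were not matched. A gene was represented by its brightest tested probe. Pairs and correlations used exact permutation tests in Python 3.11.15. On simulated data with 200 changed probes, the fit recovered 189 with 13 false calls.

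The members and lists were chosen with earlier results of these data known. Named were all member probes, up to 6 genes of each red cell list and up to 3 of each other list by smallest p, red cell list genes detected on 1 to 7 arrays, and the 10 genes most and 5 least like the members. Alternatives covered filter, normalization, background, weights, BeadChip, replicate number and left-out arrays. LUN and CON arrays of equal replicate number did not pair, with r over 0.1 in 0 of 8 pairs.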

Additional observations from a re-analysis of the deposited data

Results flagged for a closer look

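A sample far from its group was looked for in each of the 8 probes and both groups, 16 groups of 8 arrays in all, of which chance would flag about 1 in 20. In 1 of them an array stood out: for the dimmest Fech probe (ILMN_2710731), LUN 1 had a log2 value of 5.42, and the next LUN array had 5.09, a gap of 0.61 of the range of the group. The 2 other Fech probes were not flagged in this way.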

How the results depend on the processing

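All 5 falls kept their direction under every alternative run and stayed past the threshold except in 6 cases. On BeadChip 1 alone Hba-a1 gave -0.71, Hbb-b2 -0.39, Hbb-bt -0.33, Alas2 -0.53 and Slc4a1 -0.88, none of them past the threshold (0 member probes), and with the deposited log2 values Hbb-b2 gave -1.53 (adjusted p = 0.0980 from limma). With detection on all 16 arrays 3 member probes were tested and lower, since Hbb-b2 and Slc4a1 then fell outside the filter. Without background correction Hbb-b2 gave -0.39 and Slc4a1 -0.83, and with an offset of 50 they gave -0.42 and -0.89, so that Hbb-b2 no longer differed by 1.5-fold; Slc4a1 gave -1.64 with the deposited values. Leaving out 1 array gave Hba-a1 -1.25 to -1.06, Hbb-b2 -0.82 to -0.61, Hbb-bt -0.80 to -0.66, Alas2 -1.26 to -1.05, Slc4a1 -1.39 to -1.12 and Fech -0.06 to 0.06.

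Probes past both thresholds numbered 200 (122 higher, 78 lower), 226 (94 higher, 132 lower) under median scaling, with 174 to 253 when 1 array was left out, and 495 (51 higher, 444 lower) without normalization between arrays, 88 without background correction, 97 with a background offset of 50, 384 with the deposited values, 7 on BeadChip 1 alone and 88 on BeadChip 2 alone. Without CON 4 and CON 8, chosen after seeing the data, it was 328, and the 5 members stayed called. Without normalization the median change of tested probes was -0.25, and relative to it Hba-a1 gave -1.18, Hbb-b2 -0.64, Hbb-bt -0.76, Alas2 -1.17 and Slc4a1 -1.22. Fech had both signs, -0.16 to 0.13, under the alternatives, and its probe ILMN_1229519 passed without normalization (-0.32, adjusted p = 0.0455 from limma). Relative to the median change of -0.25, that probe gave only -0.07.

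Without background correction 13 of 15 pairs of members differed in change, Hba-a1 minus Slc4a1 turned to -0.31 and Hbb-b2 minus Hbb-bt to 0.30. Leaving out 1 array gave 7 to 11 pairs in place of 8. Of the 30 correlations 9 passed, 0 with BeadChip means removed and 7 to 16 when 1 array was left out, 16 without LUN 5. With the replicate number as a block 179 probes passed and Hba-a1 had an adjusted p of 0.0158 from limma, and the block changed no call of a member. Causes of these shifts were not tested. The dim probes of Hbb-b2, Slc4a1 and Fech limit precision, since their signals lie near the negative controls.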
